A study of Mus musculus with 20 samples.

Results

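Complexes II to V of the mitochondrial respiratory chain are described here through the transcripts of their nuclear-encoded subunits in mouse embryonic fibroblasts. The genes were taken by symbol: Sdha, Sdhb, Sdhc, Sdhd, Cyc1, Cycs and every RefSeq symbol that begins with Uqcr, Cox4i, Cox5, Cox6, Cox7, Cox8 or Atp5. This rule was chosen with earlier results of these data known. The rule took 63 RefSeq symbols, of which 49 were protein-coding and 14 were pseudogenes. All 49 protein-coding genes had a probe on the array and none of the pseudogenes did (0 of 14). They are called the members, and they held 60 of the 41174 probes. Of the 49 members, 45 were well above background in at least 1 group and were tested, among 20232 genes tested in all. All 45 were well above background on all 20 arrays, so none entered through 1 group only. Cox7a2l, a factor of supercomplex assembly related to subunit VIIa, was taken by the prefix and kept.

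The study added mouse serum to the fibroblasts, cells grown out of mouse embryos, cultured them for 24 hours, and measured their total RNA on Agilent one-colour arrays, 5 arrays in each of 4 groups. All serum came from female C3H/HeN mice, an inbred strain. Control serum of the 10-day set and control serum of the 20-day set came from non-irradiated mice (0 Gy). The 4 Gy serum belonged to the 10-day set and the 8 Gy serum to the 20-day set, and both came from mice irradiated in a regime labelled L/MDR. The labels do not expand that abbreviation, do not say what the days count, and give neither the strain of the fibroblasts nor the age of the mice. No group without mouse serum was analysed here. Whether the 5 arrays of a group stand for 5 cultures or 5 serum samples is not stated, and every p-value below rests on array-to-array spread that could be technical.

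All 12 fibroblast markers looked at, among them Col1a1, Vim and Thy1, were well above background on every array of every group. Between 57.1% and 67.2% of all probes were well above background on an array, and no spot was saturated. The lowest shares lay on the slide that held control arrays 1 to 3 of the 20-day set. Each set was scanned on a day of its own, so that set and scan day cannot be told apart. Log2 levels are given relative to the 75th percentile of processed intensity on the same array, and so are all changes. Levels of different genes were not ranked, since probes differ in brightness. In cultures, fewer cells of a kind and less RNA per cell cannot be told apart.

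Complex II, succinate dehydrogenase, passes electrons from succinate to ubiquinone and is also an enzyme of the citric acid cycle. Complex III passes them on to cytochrome c, and complex IV, cytochrome c oxidase, hands them to oxygen. Complex V, the ATP synthase, uses the proton gradient to make ATP. Apart from complex II, each also holds subunits encoded by mitochondrial DNA, and nuclear factors such as NRF-1 and the ETS-family factor GABP are known to act on promoters of many of the nuclear genes.

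**Figure D1:**
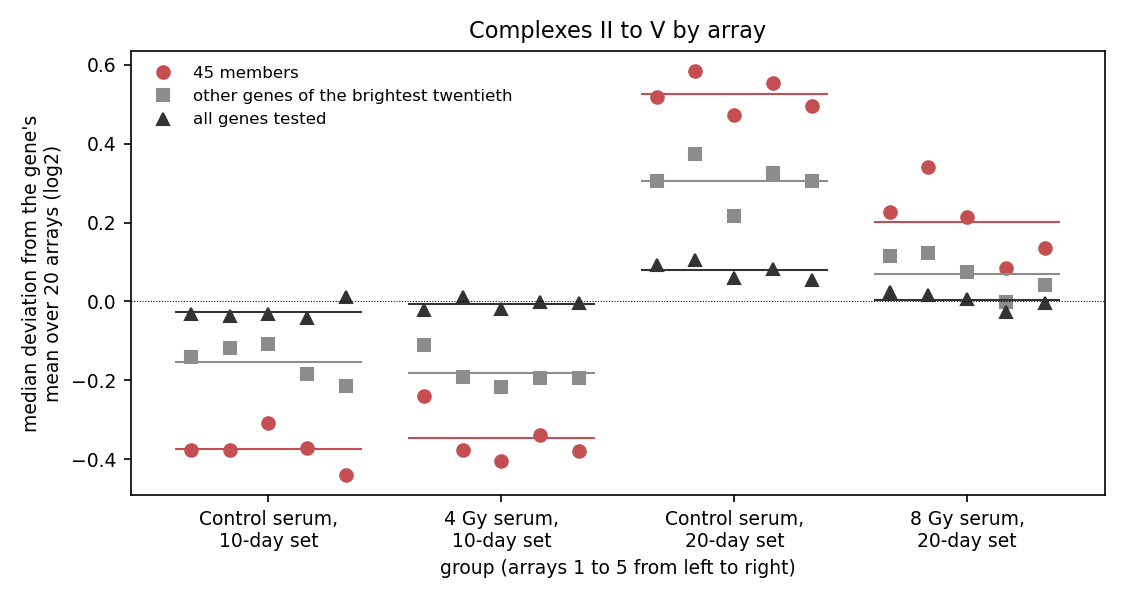
For each of the 20 arrays (x axis, by group), the median over genes of the deviation of the log2 level from that gene's mean over all arrays (y axis, log2 units). Circles are the 45 members, squares the other genes of the brightest twentieth, triangles all genes tested, and lines the group means; the members lay between 0.47 and 0.58 in the 20-day control group, between 0.08 and 0.34 with 8 Gy serum, and between -0.44 and -0.24 in both groups of the 10-day set.

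Promoters of members are shown because those 2 sites were looked for in all of them. The RefSeq promoter table (GRCm38.p6) held 35 of the 45 tested members, with a window of 250 bases before and 50 after the start. The 250 bases before the start of 4 members are printed 5′ to 3′ on the coding strand, with matches in capitals. These are matches to the NRF-1 palindrome with any base at its sixth position, or, on either strand, to the ETS motif CCGGAAG. Sdhd and Atp5h fell with 8 Gy serum in the values below, while Sdha and Atp5k did not pass the test.
Sdhd, chr9:50603850-50604099, minus strand: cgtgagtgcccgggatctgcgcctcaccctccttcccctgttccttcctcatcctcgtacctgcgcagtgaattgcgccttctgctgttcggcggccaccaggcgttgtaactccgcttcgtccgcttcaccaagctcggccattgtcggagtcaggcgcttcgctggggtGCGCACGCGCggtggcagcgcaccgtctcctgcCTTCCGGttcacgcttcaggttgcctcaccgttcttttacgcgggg
Sdha, chr13:74350241-74350490, minus strand: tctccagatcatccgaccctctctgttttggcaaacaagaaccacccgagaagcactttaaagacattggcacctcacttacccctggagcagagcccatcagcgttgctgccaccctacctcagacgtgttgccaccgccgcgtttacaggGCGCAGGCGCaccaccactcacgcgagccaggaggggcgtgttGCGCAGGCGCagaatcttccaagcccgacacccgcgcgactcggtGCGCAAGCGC
Atp5h, chr11:115419920-115420169, minus strand: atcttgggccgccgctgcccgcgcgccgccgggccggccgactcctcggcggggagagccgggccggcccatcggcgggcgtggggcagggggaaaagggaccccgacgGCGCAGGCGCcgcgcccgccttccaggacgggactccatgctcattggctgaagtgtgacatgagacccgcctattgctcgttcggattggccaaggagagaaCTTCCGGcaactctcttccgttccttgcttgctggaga
Atp5k, chr5:108434400-108434649, minus strand: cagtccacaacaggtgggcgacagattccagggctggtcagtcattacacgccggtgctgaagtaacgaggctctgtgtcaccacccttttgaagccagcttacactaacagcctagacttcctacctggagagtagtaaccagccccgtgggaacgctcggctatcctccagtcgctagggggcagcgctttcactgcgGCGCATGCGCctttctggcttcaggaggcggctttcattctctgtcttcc

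The NRF-1 motif stood in the Sdhd window from base -79 to -70 relative to the start and in the Atp5h window from -141 to -132, and the ETS match stood at -46 to -40 in Sdhd and at -38 to -32 in Atp5h. Sdha held it 3 times, at -98 to -89, -55 to -46 and -10 to -1. Atp5k held it at -50 to -41 and had an ETS match after the start, at 12 to 18, outside the bases printed. Over both strands of the whole window, that open form of the NRF-1 motif was found in 10 of the 35 member promoters (28.6%) and in 5.19% of the 27025 gene promoters. The strict NRF-1 palindrome, which the open form includes, was found in 4 of 35 (11.4%) against 1.07%. The ETS motif stood in 13 of 35 (37.1%) against 9.93%, and the YY1 motif AAGATGGC in 3 of 35 (8.57%) against 3.19%. The TATA box TATAAA was in 2 of 35 (5.71%) against 15.7%. Among the 21 members with a promoter that fell with 8 Gy serum, the open NRF-1 motif stood in 28.6%, and it stood in 28.6% of the 14 that did not pass the test. For the ETS motif the shares were 47.6% (10 of 21) and 21.4% (3 of 14). Whether these shares differ was not tested, and which members count as fallen depends on the scaling, as given below. These matches are descriptions of letters, and no binding was measured.

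The first comparison was of 8 Gy serum with control serum in the 20-day set. Of the 45 tested members, 26 were lower with 8 Gy serum and 0 were higher (limma, adjusted p under 0.05 over all genes; 27 lower and 0 higher at an unadjusted p under 0.05). Among all genes tested, 28.8% were lower and 17.3% were higher. The median member change was -0.30 on the log2 scale, against -0.09 over all genes. No slide held both kinds of serum in the 20-day set: control arrays lay on 2 slides and 8 Gy arrays on 2 others. With the slide as a random block 20 members were lower and 0 higher (limma), and Uqcrc2, Uqcrh, Cox6a1, Cox7a2l, Cox7b and Atp5o lost their calls, with adjusted p from 0.0646 to 0.156. The split also depended on the scaling. With quantile normalisation 9 members were lower and 6 higher, with cyclic loess normalisation 9 were lower and 4 higher, and with the 75th percentile taken over probes detected on all arrays 20 were lower and 3 higher. The member median was -0.07 with quantile and -0.04 with cyclic loess normalisation, where the median of all genes was -0.06 and -0.04. Scaled to the array median, 29 members were lower and 0 higher (limma; the member median was -0.44 and that of all genes -0.24), a scaling that shifts all genes of an array alike. The distance of the member median from that of all genes was -0.20 on the scale used here, -0.015 with quantile and 0.005 with cyclic loess normalisation. The 9 lower members with quantile normalisation were Sdhc, Sdhd, Uqcrc1, Cox5b, Cox6a2, Cox7a1, Atp5e, Atp5h and Atp5j2; with cyclic loess Atp5l took the place of Atp5h. The 6 higher ones with quantile normalisation were Sdha, Cyc1, Uqcrb, Cox7c, Atp5k and Atp5mpl. Calls of 6 members held under every alternative listed with the processing, the leaving out of control arrays 1 to 3 aside, and they were Sdhc, Sdhd, Uqcrc1, Cox6a2, Cox7a1 and Atp5j2.

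Most members are bright, and bright genes of other kinds fell too. Among the 1 in 5 genes with the highest mean signal, 24 of 40 members (60.0%) were lower, as were 48.2% of the other genes there. In the brightest twentieth, 19 of 28 members (67.9%) and 48.4% of the other genes were lower. The median change there was -0.38 for members and -0.24 for the others. Set against the other genes of its own twentieth, 27 of 45 members lay below the median and 18 above it, and the median difference was -0.06.

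**Figure D2:**
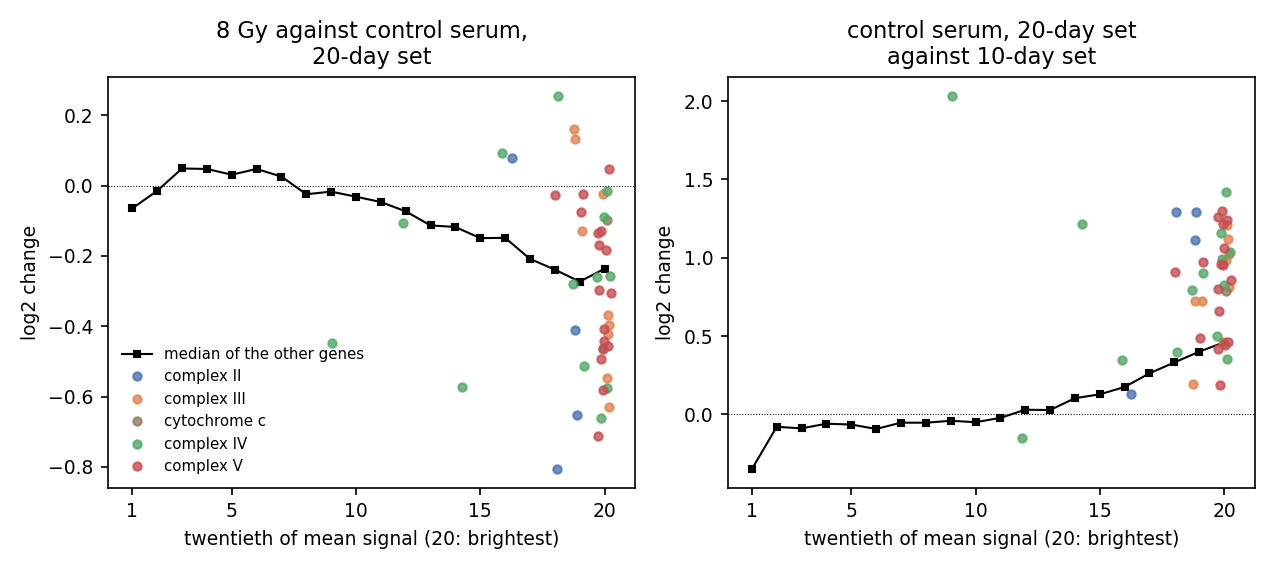
Log2 change (y axis) of the members (circles, coloured by complex) and the median of the other genes (black line) by twentieth of mean signal (x axis, 20 is the brightest; circles are spread sideways to show them). Left, 8 Gy against control serum, where 27 of 45 members lay below the line; right, control serum of the 20-day against the 10-day set, where 37 of 45 lay above it.

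Complex II fell in 3 of its 4 genes, beside 28.8% of all genes, with the membrane anchor lowest and the catalytic flavoprotein apart. Sdhb, Sdhc and Sdhd, but not Sdha, are among the 1 in 5 genes with the highest mean signal. Of the other genes there, 48.2% were lower. Whether the share of complex II differs from these, or its parts from each other, was not tested. Sdhc encodes the large anchor subunit, which helps to bind ubiquinone and haem. Its log2 levels with control serum were 4.35, 4.26, 4.10, 4.02 and 3.93 on arrays 1 to 5, and with 8 Gy serum they were 3.29, 3.39, 3.45, 3.27 and 3.22. All 8 Gy values lay under all control values, with a change of -0.81 ± 0.08 (SE; adjusted p = 6.36e-07, limma), a level 1.75-fold lower. Without control arrays 1 to 3 the change was -0.65 and still passed. Sdhd, the small anchor subunit, had levels of 5.19, 4.78, 4.74, 4.74 and 4.70 with control serum. With 8 Gy serum its levels were 4.13, 4.21, 4.22, 4.13 and 4.20. The groups of Sdhd did not overlap either, and the change was -0.65 ± 0.08 (adjusted p = 3.95e-06), although control array 1 stood above the other controls.

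Sdhb, the iron-sulphur protein, had levels of 4.63, 4.87, 4.90, 4.69 and 4.70 with control serum and of 4.27, 4.64, 4.39, 4.21 and 4.24 with 8 Gy serum. Only 8 Gy array 2 reached the range of the controls, and the change was -0.41 ± 0.09 (adjusted p = 0.00112); it was -0.15 (adjusted p = 0.143) with quantile normalisation, -0.18 (adjusted p = 0.0695) with cyclic loess and -0.10 (adjusted p = 0.616) with normexp background correction. Sdha, the flavoprotein that oxidises succinate, had levels of 2.20, 1.99, 1.80 and 2.00 on control arrays 2 to 5; the spot of array 1 was left out. With 8 Gy serum its levels were 2.08, 2.09, 2.07, 2.11 and 2.03, all inside the control range. The change of Sdha was 0.08 ± 0.07 with a 95% interval from -0.08 to 0.24, and its second probe gave 0.12 ± 0.10; with quantile normalisation the change was 0.19 (adjusted p = 0.0308), a rise. The ratio of Sdhc to Sdha, in which a shift common to all genes of an array cancels, is therefore given as well. A normalisation that acts by brightness does not cancel in it. Relative to the 10-day controls, that log2 ratio was 1.11 ± 0.12 (SD, n = 4) with control serum of the 20-day set and 0.28 ± 0.09 (SD, n = 5) with 8 Gy serum. The ranges, 0.95 to 1.25 and 0.18 to 0.41, did not overlap. For Sdhd over Sdha the log2 ratios were 1.07 ± 0.15 (n = 4) and 0.43 ± 0.07 (n = 5), again without overlap.

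In complex III, 5 of 9 genes fell (55.6%), beside 28.8% of all genes. All 9 are among the 1 in 5 genes with the highest mean signal, where 48.2% of the other genes were lower. The share of complex III thus lay near that of equally bright genes. Those that fell were both core proteins, 3 of 5 supernumerary subunits and neither of the redox subunits. A difference between these small groups was not tested. Uqcrc1, core protein 1, had levels of 5.39, 5.33, 5.05, 5.10 and 5.01 with control serum and of 4.68, 4.66, 4.52, 4.58 and 4.28 with 8 Gy serum. No value was shared between the groups, and the change was -0.63 ± 0.10 (adjusted p = 6.07e-05). A second probe of Uqcrc1 gave -0.14 ± 0.10 (adjusted p = 0.255), so the probes of this gene disagreed in size. Uqcrc2, core protein 2, changed by -0.55 ± 0.16 (adjusted p = 0.00865), with wide groups of 4.90 to 5.93 and 4.34 to 5.14 that overlapped. Without control arrays 1 to 3 that change was -0.27 and did not pass (adjusted p = 0.175).

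Cyc1, the cytochrome c1 that delivers electrons to cytochrome c, had levels of 4.05, 3.87, 3.74, 3.83 and 3.65 with control serum. With 8 Gy serum they were 4.13, 4.12, 4.07, 3.79 and 3.84, a range that overlapped the controls. The change was 0.16 ± 0.09 (adjusted p = 0.17), and it passed the test as a rise of 0.41 with quantile and of 0.38 with cyclic loess normalisation. Uqcrfs1, the Rieske iron-sulphur protein, changed by -0.13 ± 0.15 with a 95% interval from -0.44 to 0.19. Of the supernumerary subunits, Uqcr10 changed by -0.42 ± 0.09 (adjusted p = 0.000766), Uqcr11 by -0.37 ± 0.10 (adjusted p = 0.00693) and the hinge protein Uqcrh by -0.40 ± 0.14 (adjusted p = 0.028). These 3 calls were lost with quantile normalisation, and that of Uqcrh was also lost without control array 2 (-0.24, adjusted p = 0.071), without 8 Gy array 4 (-0.35, adjusted p = 0.0718) and without 8 Gy array 5 (-0.37, adjusted p = 0.0614). Uqcr11 did not pass without control arrays 1 to 3 (-0.28, adjusted p = 0.0984, limma). A second probe of Uqcrh gave -0.43 ± 0.09 (adjusted p = 0.000616). Uqcrb and Uqcrq did not pass, at 0.13 ± 0.14 and -0.02 ± 0.19. Control array 1 stood alone for Uqcrq, at 5.72 against 6.85 to 7.16 on the other controls, and without it the change was -0.28 (adjusted p = 0.0112).

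Cycs encodes cytochrome c, the carrier between complexes III and IV. Its levels were 5.49, 5.79, 5.52, 5.93 and 5.70 with control serum and 5.60, 5.65, 5.58, 5.53 and 5.57 with 8 Gy serum. The 8 Gy values lay inside the control range, with a change of -0.10 ± 0.08 (95% interval -0.27 to 0.07). Without control arrays 1 to 3 it passed as lower, at -0.23 (adjusted p = 0.0332). Its other probes gave 0.42 ± 0.26 and -0.20 ± 0.12, neither past the threshold.

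Complex IV was lower in 9 of 14 tested genes (64.3%), beside 28.8% of all genes. Of the other genes among the 1 in 5 with the highest mean signal, 48.2% were lower. Whether the share of complex IV differs from these was not tested. Cox5b, a zinc-binding subunit on the matrix side, had levels of 6.32, 6.62, 6.08, 6.07 and 6.08 with control serum and of 5.69, 5.72, 5.67, 5.34 and 5.45 with 8 Gy serum. The groups did not overlap and the change was -0.66 ± 0.12 (adjusted p = 0.000211); with normexp background correction it was -0.31 (adjusted p = 0.0526). Cox4i1, the ubiquitous form of the largest nuclear subunit, changed by -0.58 ± 0.16 (adjusted p = 0.00572), from a range of 6.30 to 7.21 to one of 6.02 to 6.50. That change was -0.23 (adjusted p = 0.279) without control arrays 1 to 3. Cox8a changed by -0.46 ± 0.11 (adjusted p = 0.00191), Cox7b by -0.28 ± 0.09 (adjusted p = 0.0181) and Cox6c by -0.26 ± 0.07 (adjusted p = 0.00385); Cox6c turned to 0.03 with cyclic loess normalisation, and all 3 calls were lost with quantile normalisation.

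Several subunits of complex IV have a ubiquitous and a heart and muscle form, and in complex IV the calls of the muscle forms Cox6a2 and Cox7a1 were the ones that held under each of those alternatives. Cox6a2, the heart and muscle form of subunit VIa, had levels of 1.79, 1.85, 1.37, 1.44 and 1.39 with control serum and of 1.14, 1.31, 0.96, 0.61 and 0.97 with 8 Gy serum. All 8 Gy values lay under the lowest control, and the change was -0.57 ± 0.13 (adjusted p = 0.00113). Its liver and ubiquitous counterpart Cox6a1 changed by -0.26 ± 0.09 (adjusted p = 0.022), turned to 0.12 with cyclic loess normalisation, and lost its call without control array 2 (-0.18), 8 Gy array 4 (-0.24) or 8 Gy array 5 (-0.24). Cox7a1, the heart and muscle form of subunit VIIa, had levels of -0.30, -0.61, -0.78, -0.97 and -1.06 with control serum. With 8 Gy serum they were -1.20, -1.06, -1.11, -1.23 and -1.35, so that the groups met at their edge. The change was -0.45 ± 0.13 (adjusted p = 0.00784) and fell short of the threshold without control arrays 1 to 3 (-0.18, adjusted p = 0.264). Cox7a2, its ubiquitous form, changed by -0.09 ± 0.08 and Cox7a2l by -0.51 ± 0.18 (adjusted p = 0.0268). The call of Cox7a2l was lost without control array 1, 3 or 4 or without 8 Gy array 3, with changes from -0.46 to -0.42. It was also lost without control arrays 1 to 3 together (-0.45, adjusted p = 0.0802, limma). The log2 ratio of Cox7a1 to Cox7a2, relative to the 10-day controls, was 1.21 ± 0.35 with control and 0.85 ± 0.09 with 8 Gy serum (SD, n = 5), with ranges of 0.80 to 1.68 and 0.71 to 0.94 that overlapped. Whether a muscle form fell more than its counterpart was not tested.

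The other members of complex IV did not pass. Cox7c had the highest member change, 0.26 ± 0.14 (95% interval -0.04 to 0.55), with control levels of 2.57, 3.28, 3.50, 3.51 and 3.68 and 8 Gy levels of 3.58, 3.63, 3.43, 3.53 and 3.65. Without control array 5 it passed as a rise of 0.35 (adjusted p = 0.0465), and with quantile normalisation as a rise of 0.45 (adjusted p = 0.0131), while without control arrays 1 to 3 the change was -0.03. Cox6b1 changed by 0.09 ± 0.22, its testis form Cox6b2 by -0.11 ± 0.13 and Cox5a by -0.02 ± 0.14, which passed as lower without control arrays 1 to 3 (-0.30, adjusted p = 0.0166). The tissue forms Cox4i2, Cox7b2 and Cox8b were not well above background on any array, and Cox8c was so on 1 array of the 10-day controls and 1 array with 8 Gy serum only.

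Complex V fell in 9 of 17 genes (52.9%), beside 28.8% of all genes. All of its genes are among the 1 in 5 with the highest mean signal, where 48.2% of the other genes were lower. The share of complex V thus lay near that of equally bright genes. The calls are listed by part below, but the parts hold few genes each and a difference between them was not tested. All 4 genes of the peripheral stalk, which holds the catalytic head still, were lower: Atp5pb (subunit b) by -0.49 ± 0.12, Atp5h (subunit d) by -0.46 ± 0.08, Atp5o (OSCP) by -0.31 ± 0.09 and Atp5j (F6) by -0.30 ± 0.07, with adjusted p from 0.00015 to 0.0121. Of these calls, Atp5h alone held with quantile normalisation, none of the 4 held with cyclic loess, and Atp5j alone held with normexp background correction. The changes of Atp5o and Atp5j turned to 0.00 and 0.01 with cyclic loess normalisation. Atp5h had levels of 5.93, 6.19, 5.83, 6.24 and 5.97 with control serum and of 5.60, 5.64, 5.61, 5.48 and 5.55 with 8 Gy serum, without overlap, and its second probe gave -0.38 ± 0.08 (adjusted p = 0.00108).

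Neither gene of the catalytic head passed. Atp5b, the beta subunit that carries the catalytic sites, had levels of 6.99, 7.93, 7.31, 7.55 and 7.82 with control serum and of 7.46, 7.39, 7.32, 7.33 and 7.43 with 8 Gy serum. The controls spread to both sides of the 8 Gy values, and the change was -0.13 ± 0.13. Other probes of Atp5b gave 0.26 ± 0.08 (adjusted p = 0.0123, a rise) and 0.21 ± 0.11 (adjusted p = 0.115), so that the probes of this gene differed in sign. Atp5a1, the alpha subunit, changed by -0.14 ± 0.11, and its second probe by -0.11 ± 0.09. Without control arrays 1 to 3 both genes passed as lower, Atp5a1 at -0.34 (adjusted p = 0.021) and Atp5b at -0.29 (adjusted p = 0.0342).

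Of the central stalk of F1, Atp5e (epsilon) had the lowest change in the complex. Its levels were 7.23, 7.35, 7.36, 7.07 and 7.00 with control serum and 6.53, 6.61, 6.64, 6.39 and 6.29 with 8 Gy serum. The groups lay apart, with a change of -0.71 ± 0.10 (adjusted p = 1.44e-05), 1.64-fold lower. It was -0.38 and did not pass with normexp background correction (adjusted p = 0.114). The log2 ratio of Atp5e to Atp5b, relative to the 10-day controls, was 1.08 ± 0.45 with control and 0.49 ± 0.17 with 8 Gy serum (SD, n = 5), with ranges of 0.57 to 1.64 and 0.25 to 0.70 that overlapped. Atp5c1 (gamma) and Atp5d (delta) did not pass, at 0.05 ± 0.10 and -0.07 ± 0.09; Atp5c1 rose by 0.39 with cyclic loess normalisation and Atp5d by 0.29 with normexp background correction. The c subunit, which forms the rotating ring, is made from 3 genes that encode the same mature protein. Of these, Atp5g2 changed by -0.44 ± 0.12 (adjusted p = 0.00415) and Atp5g1 by -0.41 ± 0.11 (adjusted p = 0.00678), while Atp5g3 changed by -0.17 ± 0.08 (adjusted p = 0.0823). Without control array 1 or 3, Atp5g3 passed as well, at -0.23 and -0.20, and it was 0.04 with quantile and 0.17 with cyclic loess normalisation. Atp5g2 did not pass without control arrays 1 to 3 (-0.32, adjusted p = 0.0747), and neither Atp5g1 nor Atp5g2 passed with quantile normalisation.

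Of 5 small membrane subunits, Atp5j2 (subunit f) and Atp5l (subunit g) fell. Atp5j2 had levels of 6.22, 6.09, 5.82, 5.78 and 5.83 with control serum and of 5.35, 5.58, 5.37, 5.25 and 5.30 with 8 Gy serum. The groups did not overlap, and the change was -0.58 ± 0.09 (adjusted p = 7.69e-05). Atp5l changed by -0.46 ± 0.10 (adjusted p = 0.000655), and by -0.21 (adjusted p = 0.0673) with quantile normalisation. Atp5k (subunit e), Atp5md and Atp5mpl did not pass, at -0.03 ± 0.10, -0.18 ± 0.19 and -0.02 ± 0.08; with quantile normalisation Atp5k and Atp5mpl rose, by 0.22 and 0.23. Atp5md had 1 control array apart, array 2 at 4.31 against 5.03 to 5.69, and without it the change was -0.41 (adjusted p = 0.0205).

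**Figure D3:**
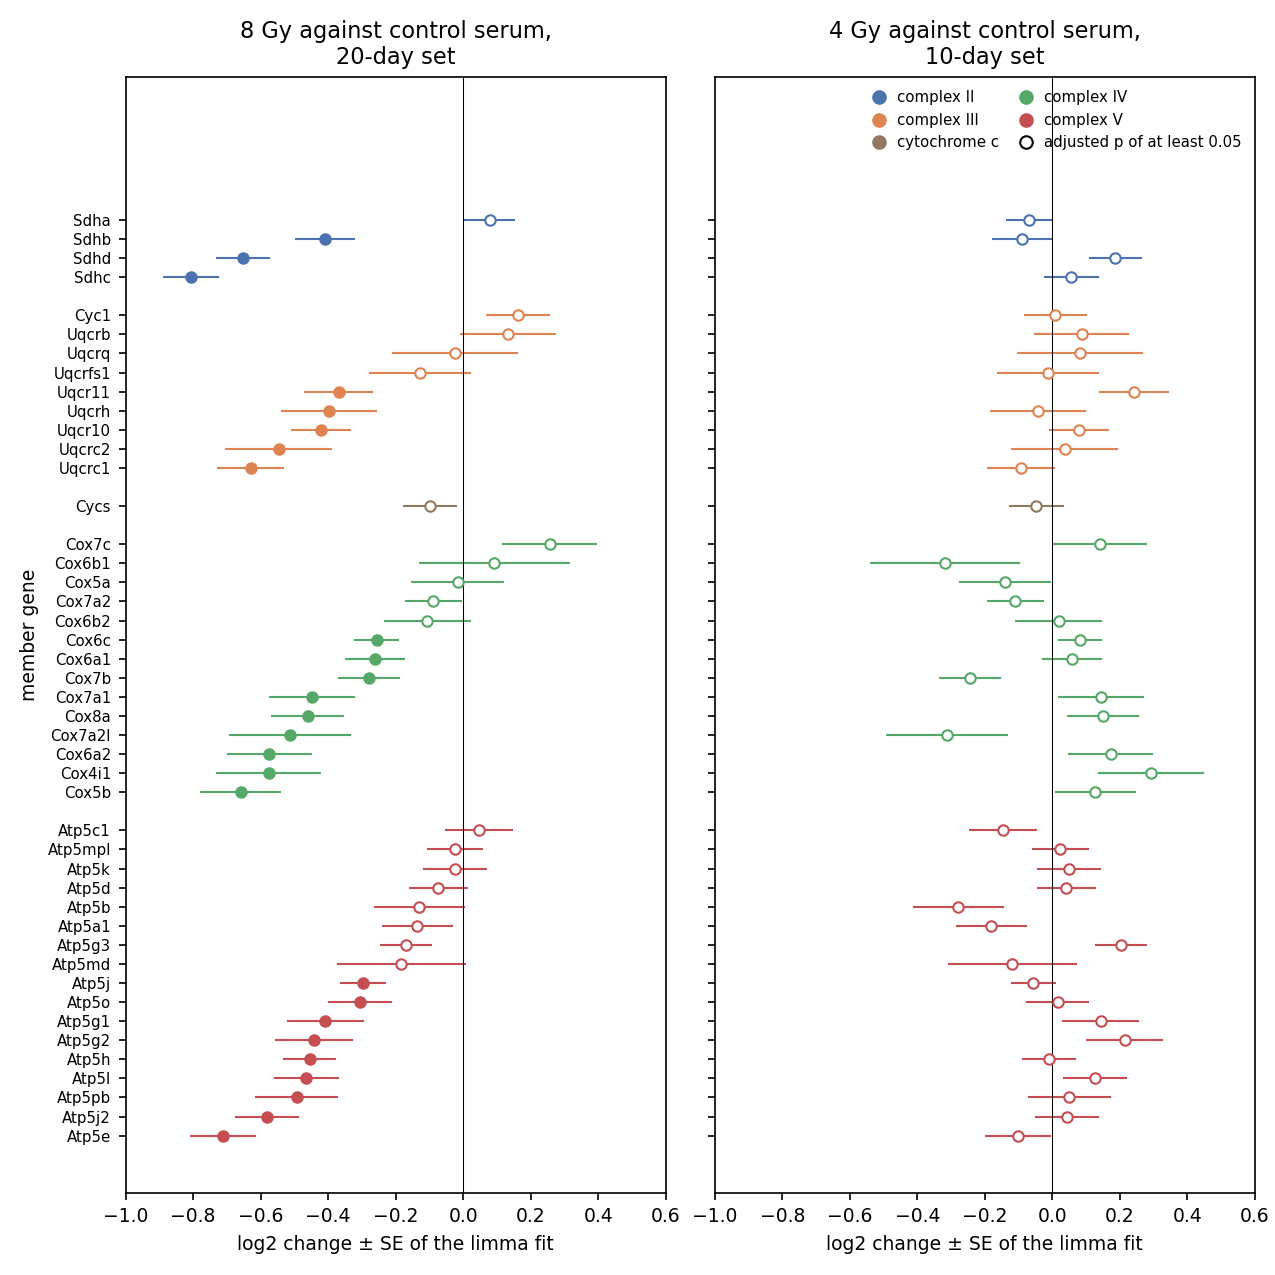
Log2 change ± SE of the limma fit (x axis) of each of the 45 members (y axis, grouped by complex), for 8 Gy against control serum in the 20-day set (left) and 4 Gy against control serum in the 10-day set (right); filled circles passed an adjusted p of 0.05. On the left 26 circles are filled, all below 0, with Sdhc lowest at -0.81 (Atp5j, Atp5o, Cox6a1 and Cox6c were above 0 with cyclic loess normalisation); on the right none is filled.

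In the 10-day set, 4 Gy serum was compared with control serum. No member passed the test in either direction (limma, 0 lower and 0 higher; at an unadjusted p under 0.05, 1 lower and 3 higher), while 1.45% of all genes were lower and 4.49% higher. Over all genes these were 294 lower and 908 higher, and the counts moved to 1 and 0 with the slide as a random block and to 19 and 1 with the slide as a fixed block. Without 4 Gy array 3 they were 20 and 199, and without 4 Gy array 2 they were 747 and 1363. The median member change was 0.04, against 0.00 over all genes, and it was -0.04 scaled to the array median. The lowest change was that of Cox6b1 at -0.32 ± 0.22, with levels of 1.66, 1.78, 1.77, 1.56 and 1.33 with control serum and of 1.61, 1.49, 1.15, 1.13 and 1.14 with 4 Gy serum. The highest was that of Cox4i1 at 0.29 ± 0.16, with levels of 5.33, 5.35, 5.49, 5.57 and 5.27 with control serum and of 5.36, 5.42, 5.87, 5.92 and 5.91 with 4 Gy serum. In both genes 4 Gy arrays 1 and 2 lay within or near the controls and arrays 3 to 5 lay apart from them. Arrays 1 and 2 shared a slide with control array 5, while arrays 3 to 5 lay on another slide; the part of the slide in this was not tested. Within that shared slide (1 control and 2 irradiated arrays), the median member change was 0.15 and 42 of 45 members were above 0, against a median of 0.01 over all genes. That rests on control array 5 alone, whose member median, -0.44 from the mean over arrays, was the lowest of the 20 arrays.

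Among single genes, Sdhd changed by 0.19 ± 0.08 (adjusted p = 0.17), Uqcr11 by 0.24 ± 0.10 (adjusted p = 0.173) and Atp5g3 by 0.20 ± 0.08 (adjusted p = 0.125). Cox7b changed by -0.24 ± 0.09 (adjusted p = 0.121), and without 4 Gy array 1 by -0.32 (adjusted p = 0.0238). The spread is shared by all groups, and without control arrays 1 to 3 of the 20-day set the same changes of Sdhd (adjusted p = 0.0204) and Atp5g3 (adjusted p = 0.018) passed, as did that of Atp5b (-0.28, adjusted p = 0.0327). Intervals bound what could have been missed: that of Sdhc ran from -0.12 to 0.23, that of Cox5b from -0.12 to 0.38 and that of Atp5e from -0.31 to 0.10. Another probe of Atp5b, not the one that stands for the gene, passed at -0.44 ± 0.11 (adjusted p = 0.0252), and the main probe gave -0.28 ± 0.13 (adjusted p = 0.232).

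The responses of both sets were then compared directly, as the change with 8 Gy minus the change with 4 Gy serum. This difference shares the 20-day arrays with the first comparison and is not independent of it. It was below 0 past the threshold for 19 members and above 0 for none (limma, 0; also 0 at an unadjusted p under 0.05), against 22.0% and 12.2% of all genes. The median was -0.32 over members and -0.11 over all genes. These values use a single probe per gene. Other probes of Atp5b passed above 0, at 0.51 ± 0.11 (adjusted p = 0.00207, limma) and 0.65 ± 0.15 (adjusted p = 0.0028). Other probes of Atp5a1 (-0.38 ± 0.12, adjusted p = 0.0196) and Uqcrh (-0.36 ± 0.13, adjusted p = 0.0334) passed below 0, where their main probes did not. Other probes of Uqcrc1, Atp5g2 and Atp5h passed below 0 as well. The lowest differences were those of Cox4i1 at -0.87 ± 0.22, Sdhc at -0.86 ± 0.12, Sdhd at -0.84 ± 0.11, Cox5b at -0.79 ± 0.17 and Cox6a2 at -0.75 ± 0.18, with adjusted p from 3.32e-05 to 0.00569. All 3 genes of the c ring were among the 19, including Atp5g3 at -0.37 ± 0.11 (adjusted p = 0.0136). With quantile normalisation 11 members were lower and 1 higher, and with cyclic loess normalisation 11 and 3. Calls of Sdhc, Sdhd, Cox4i1, Cox6a2, Cox7a1, Atp5j2 and Atp5l held under each of those alternatives, while those of Cox4i1 and Cox7a1 were lost without control arrays 1 to 3. With the replicate number as a block, Sdhb passed (adjusted p = 0.036) and Atp5pb did not (adjusted p = 0.0502). Dose and set differ together between the responses, so that they cannot be told apart.

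The widest differences lay between the sets. In control serum, 40 of 45 members were higher in the 20-day than in the 10-day set and 0 were lower (limma; 40 and 0 at an unadjusted p under 0.05), against 37.0% and 29.4% of all genes. The median member change was 0.90, against 0.07 over all genes, and 1 member was below 0. These control arrays of the 20-day set are the same ones that 8 Gy serum was set against. In the brightest twentieth, 27 of 28 members (96.4%) and 61.6% of the other genes were higher, with medians of 0.96 and 0.46. Against the other genes of its own twentieth, 37 of 45 members lay above the median, by a median of 0.49. With quantile normalisation 31 members were higher and with cyclic loess normalisation 31 higher and 1 lower, with member medians of 0.52 and 0.40. Calls of 30 members held under each of those alternatives.

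Cox7a1 had the largest change between the control groups. Its levels were -2.68, -2.71, -2.61, -2.72 and -3.16 in the 10-day controls and, as given above, from -1.06 to -0.30 in the 20-day controls. That was a change of 2.04 ± 0.13 (adjusted p = 7.57e-11), 4.10-fold higher. Cox4i1 followed at 1.42 ± 0.16, then Atp5j2 at 1.30 ± 0.09, Sdhc and Sdhd at 1.29 ± 0.08 each, Atp5e at 1.26 ± 0.10, Atp5h at 1.24 ± 0.08, and Atp5l at 1.21 ± 0.10, Cox6a2 at 1.21 ± 0.13 and Uqcr11 at 1.21 ± 0.10. Neighbours in this order after Cox7a1 differ by less than their errors. Sdhd levels were 3.50, 3.50, 3.53, 3.61 and 3.55 in the 10-day controls, all under the lowest 20-day control at 4.70. Sdhc levels there were 2.91, 2.79, 2.99, 2.84 and 2.66, and the lowest 20-day control stood at 3.93.

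The members that did not pass numbered 5: Sdha at 0.13 ± 0.07 (n = 4 in the 20-day controls), Cyc1 at 0.19 ± 0.09, Atp5b at 0.19 ± 0.13, Cox6b1 at 0.34 ± 0.22 and Cox6b2 at -0.15 ± 0.13. Cox6b1 passed at 0.64 (adjusted p = 7.84e-05) and Atp5b at 0.32 (adjusted p = 0.0161) without control array 1 of the 20-day set, where Cox6b1 stood at 0.77 against 2.16 to 2.34. Sdha passed at 0.19 without control array 4 and Cyc1 at 0.24 without control array 5 of that set, while with quantile normalisation both lay below 0, at -0.04 and -0.16. The change of Atp5b turned to -0.47 with cyclic loess normalisation (adjusted p = 0.00332), and its other probes gave -0.16 ± 0.08 and -0.12 ± 0.11. Among members that were higher, Atp5a1 (0.42 ± 0.11), Atp5c1 (0.46 ± 0.10), Cox6a1 (0.50 ± 0.09), Cox5a (0.35 ± 0.14), Uqcrq (0.46 ± 0.19) and Atp5md (0.44 ± 0.19) turned below 0 with cyclic loess normalisation. Cox7c (0.40 ± 0.14) turned to -0.03 with normexp background correction. Calls of Uqcrq, Cox5a, Cox7c and Atp5md were lost without single arrays, with lowest values of 0.36, 0.25, 0.31 and 0.32.

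In irradiated serum, 8 Gy arrays of the 20-day set were compared with 4 Gy arrays of the 10-day set, a comparison in which dose and set both differ. Of the 45 members 41 were higher and 0 lower (limma; 41 and 1 at an unadjusted p under 0.05), against 29.2% and 28.8% of all genes. The median was 0.53 over members and 0.00 over all genes, and 43 of 45 members lay above the median of their own twentieth. With quantile normalisation 29 and with cyclic loess normalisation 28 were higher. No array of this comparison was used in the control one. Cox7a1 again had the highest value, 1.44 ± 0.13 (adjusted p = 2.2e-08), from levels of -2.65, -2.76, -2.63, -2.43 and -2.68 with 4 Gy serum. Atp5mpl was at 0.92 ± 0.08, Cox7a2 at 0.85 ± 0.08 and Atp5k at 0.83 ± 0.10. Sdha passed here, at 0.27 ± 0.07 (adjusted p = 0.00283), as did Cyc1, at 0.35 ± 0.09 (adjusted p = 0.00424). The 4 members that did not pass were Uqcrq at 0.36 ± 0.19, Cox6a1 at 0.18 ± 0.09, Cox6b2 at -0.28 ± 0.13 and Atp5md at 0.38 ± 0.19. Uqcrc1, Uqcrc2 and Atp5b lost their calls without single arrays, with lowest values of 0.24, 0.33 and 0.30. With the replicate number as a block, Uqcrc2 did not pass (adjusted p = 0.0934) and Cox6b2 passed as lower (adjusted p = 0.0478).

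**Figure D4:**
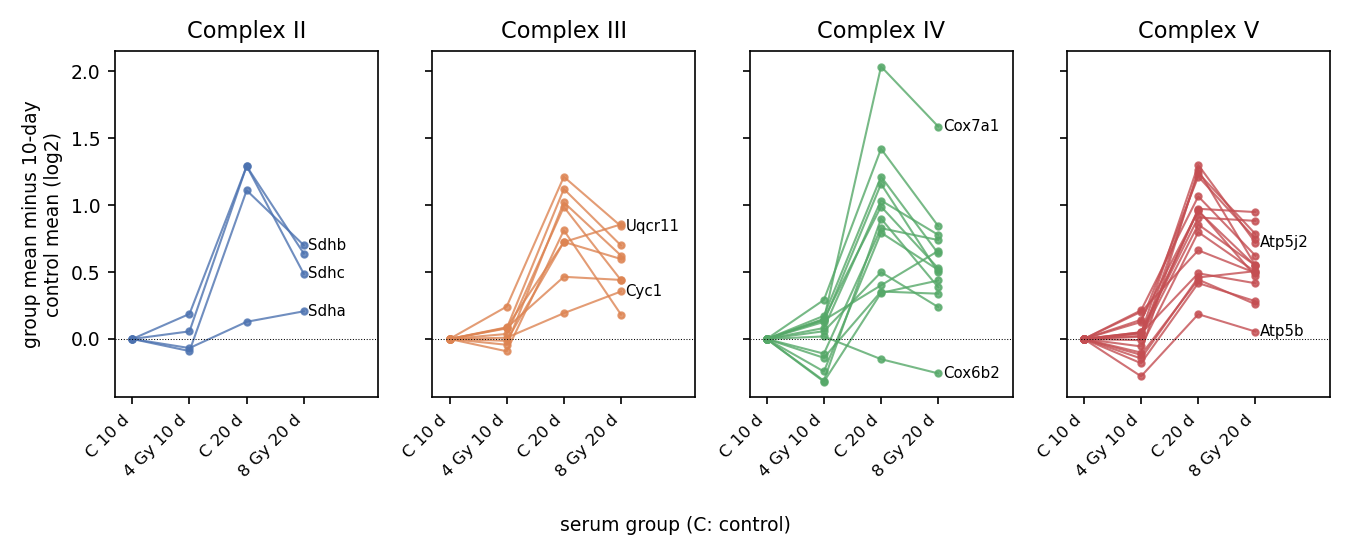
Group means of each member minus its mean in the 10-day controls (y axis, log2 units), by serum group (x axis; C is control serum, d the set in days), with a panel for each of complexes II to V and a line for each gene. Most lines stay near 0 with 4 Gy serum, are highest in the 20-day controls and lie between with 8 Gy serum; Cox7a1 reaches 2.04 in the 20-day controls, while Sdha, Cyc1, Atp5b and Cox6b2 stay near the 10-day level there.

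Markers of other cell types also differed between the sets. The summed level of 11 macrophage markers, in multiples of the 75th percentile, was 1.38 to 2.32 over the arrays of the 10-day set and 33.2 to 48.9 over those of the 20-day set. All 11 were higher in the 20-day set in both kinds of serum, by a median of 4.07 in control and 3.85 in irradiated serum, and Itgam was the only one of them not well above background on all arrays. Of all genes, 37.0% were higher there in control and 29.2% in irradiated serum. With 8 Gy serum 3 of the 11 were lower and 0 higher than with control serum (limma, median -0.06), beside 28.8% and 17.3% of all genes. With 4 Gy serum 0 were lower and 3 higher (median 0.29), beside 1.45% and 4.49% of all genes. In the difference in response 5 were below 0 and 0 above (median -0.52), beside 22.0% and 12.2% of all genes. The count of lower markers with 8 Gy serum thus lay near the share of all genes. The summed level of 12 striated muscle markers was 37.4 to 68.8 in the 10-day set and 14.7 to 34.5 in the 20-day set, where Myog, Myh3 and Mb were at background; Ckm was at background on all arrays. For 7 brown adipocyte markers the sum was 0.41 to 0.54 in the 10-day set, 1.59 to 1.96 in the 20-day controls and 0.99 to 1.44 with 8 Gy serum. It was lower with 8 Gy serum without overlap, and Pparg, with the highest signal of the 7, made up the largest part of it. Of the 6 tested, 2 were lower and 1 higher there, near the 28.8% and 17.3% of all genes. The mean log2 level of Adipoq was -2.22 with control and -3.03 with 8 Gy serum, and that of Pparg 0.39 and -0.17. Prdm16 (-6.49 and -5.31) and Plin1 (-4.31 and -4.11) went the other way, with Prdm16 well above background on only 1 of 5 of these control arrays. Ucp1 was at background on all arrays. The summed level of the 12 fibroblast markers was 1120 to 1316 in the 10-day set and 774 to 940.4 in the 20-day set. Of 6 epithelial markers the sum was 1.38 to 2.52 over all arrays, and of 6 endothelial markers 0.35 to 0.50 in the 10-day and 0.13 to 0.27 in the 20-day set, with Pecam1 and Tie1 at background on all arrays. The part of these cell types in the member changes was not tested.

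Other lists of mitochondrial genes were counted in the same fit. Of 35 subunits of complex I, 25 were lower with 8 Gy serum and 1 higher, with a median of -0.37; Ndufa6 was at -0.84 ± 0.07 and Ndufb5 at -0.93 ± 0.11. Of 78 mitochondrial ribosomal proteins, 48 were lower and 2 higher (median -0.35), with Mrpl22 at -0.84 ± 0.06 and Mrps14 at -0.69 ± 0.06. Of 33 assembly factors of complexes II to V, 18 were lower and 3 higher (median -0.25). Among them Sdhaf3, an assembly factor for the iron-sulphur subunit of complex II, was at -0.92 ± 0.07 (adjusted p = 4.1e-08) and Cox11, a copper chaperone of complex IV, at -0.51 ± 0.06. Of 19 genes of the citric acid cycle and pyruvate entry, 12 were lower and 1 higher (median -0.30), with Idh3a at -0.82 ± 0.09 and the pyruvate carrier Mpc1 at -0.45 ± 0.06. Of 16 membrane carriers and import proteins, 9 were lower and 2 higher (median -0.23), with Vdac2 at -0.52 ± 0.06 and Timm23 at -0.64 ± 0.07. For comparison, 32 of 83 cytosolic ribosomal proteins were lower and 5 higher (median -0.16), with Rps19 at -1.05 ± 0.11 and Rpl29 at -0.87 ± 0.10; this turned to 10 lower and 30 higher (median 0.18) with cyclic loess normalisation. Cyclic loess normalisation gave 12 lower and 1 higher for complex I, 32 and 6 for mitochondrial ribosomal proteins, 12 and 3 for assembly factors, 7 and 3 for citric acid cycle genes, and 5 and 3 for carriers, whose median turned to 0.09. These counts stand on the same scaling as the members and beside the same 28.8% and 17.3% of all genes.

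With 4 Gy serum the lists gave few calls, as did all genes (1.45% lower and 4.49% higher). None of 78 mitochondrial ribosomal proteins and none of 16 biogenesis genes passed, 1 complex I subunit and 1 assembly factor were higher, 1 citric acid cycle gene was lower, 1 carrier was higher, and of the cytosolic ribosomal proteins 2 were lower and 1 higher. Between the control groups, 32 of 35 complex I subunits, 70 of 78 mitochondrial ribosomal proteins, 26 of 33 assembly factors, 16 of 19 citric acid cycle genes, 10 of 16 carriers and 55 of 83 cytosolic ribosomal proteins were higher in the 20-day set; with cyclic loess normalisation 32 of the cytosolic ribosomal proteins were higher and 33 lower. Of all genes 37.0% were higher and 29.4% lower there. Between the irradiated groups these numbers were 32, 64, 19, 11, 11 and 54, beside 29.2% of all genes higher and 28.8% lower.

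Regulators of these genes were counted as well. Of 16 genes of mitochondrial biogenesis and genome maintenance, 4 were lower and 3 higher with 8 Gy serum, with a median of -0.12; these shares, 25.0% and 18.8%, lie near the 28.8% and 17.3% of all genes. Ppargc1b, a coactivator of mitochondrial genes, was higher by 0.71 ± 0.09 (adjusted p = 9.15e-06), and Nrf1, which encodes NRF-1, by 0.29 ± 0.09 (adjusted p = 0.0116). Gabpa, the DNA-binding subunit of GABP, was lower, at -0.58 ± 0.13 (adjusted p = 0.00119), as were Tfam, which packages mitochondrial DNA, at -0.37 ± 0.12 (adjusted p = 0.0172) and the mitochondrial transcription factor Tfb2m at -0.77 ± 0.10 (adjusted p = 4.9e-06). Ppargc1a changed by -0.20 ± 0.17, Esrra by 0.04 ± 0.08 and Yy1 by -0.12 ± 0.20, and none of these 3 passed. Between the control groups 7 of the 16 (43.8%) were higher and 4 (25.0%) lower, near the 37.0% and 29.4% of all genes. Tfb2m by 1.57 ± 0.10, Ppargc1b by 0.88 ± 0.09 and Gabpa by 0.79 ± 0.13 were higher, as were Esrra by 0.65 ± 0.08 and Tfam by 0.61 ± 0.12. Nrf1 was lower, at -0.49 ± 0.09, and so was Ppargc1a, at -0.49 ± 0.17 (adjusted p = 0.0173, limma). Yy1 did not pass, at -0.25 ± 0.20.

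**Figure D5:**
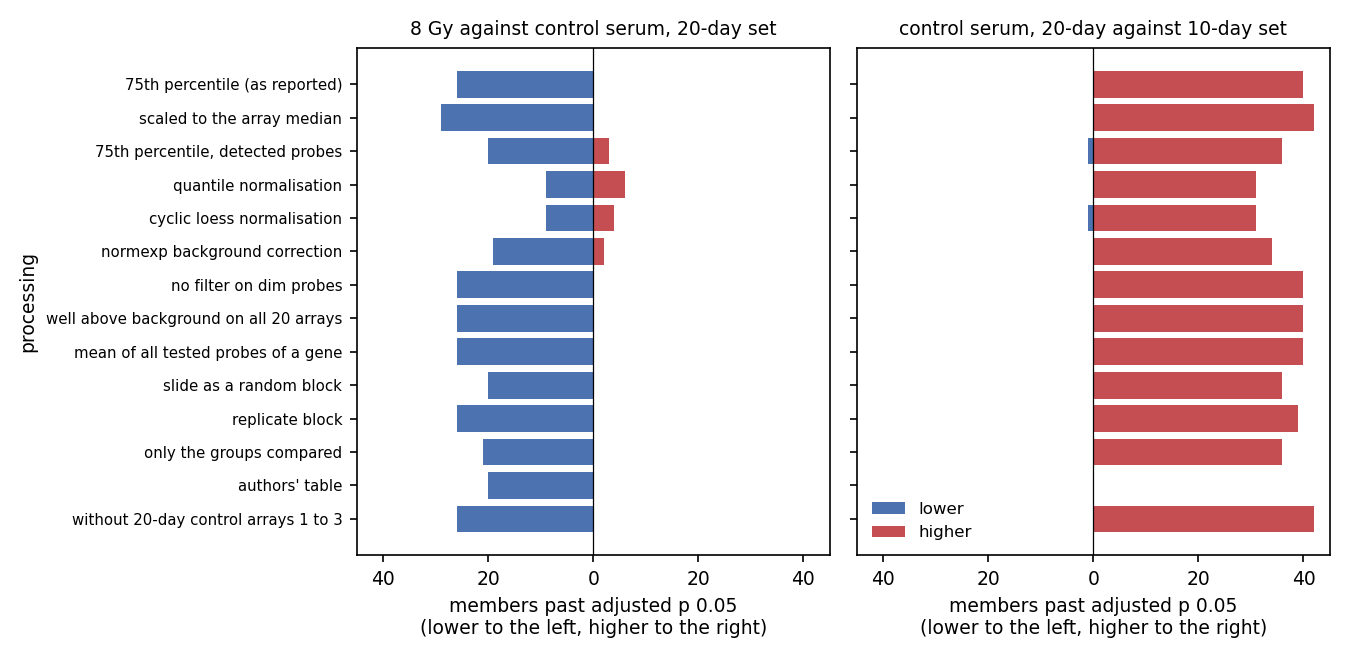
Number of members past an adjusted p of 0.05 (x axis, lower to the left and higher to the right) under each processing alternative (y axis), for 8 Gy against control serum in the 20-day set (left) and control serum of the 20-day against the 10-day set (right). On the left the counts run from 29 lower and 0 higher to 9 lower and 6 higher; on the right at least 31 members were higher under each alternative run, and the authors' table has no bar because it was centred within each set.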

How the data were processed

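Total RNA was hybridised to 20 Agilent one-colour (Cy3) arrays, 5 in each of 4 serum groups taken from the labels. The deposited scanner files give, per the file headers, processed intensity that Agilent Feature Extraction 10.5.1.1 background-subtracted within each array; version 11.0 stands in the submitters' processing notes. The deposited spot marks (other values, 0 or 1) give outliers and signal well above background. The authors' deposited table holds log2 values centred within each set, and it was used as an alternative only.

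Control spots and outlier spots were left out, spots of a probe were averaged, and the 75th percentile of each array was subtracted on the log2 scale. A probe was tested if well above background on all 5 arrays of a group, and the probe with the highest mean stood for its gene. Symbols came from RefSeq by accession for 24844 of 41174 probes; probes without a symbol were tested under their own identifiers, so that 12912 of the 20232 genes tested were named. Probe sequences were not used here, so that signal from paralogs or pseudogenes was not checked. limma 3.58.1 in R 4.3.3 fitted a mean per group over all 20 arrays, two-sided, with Benjamini-Hochberg adjustment over all genes tested and a threshold of 0.05. The fit was tested on simulated data. Members and lists were chosen with earlier results of these data known. Named genes are, in each complex, the 3 with the smallest p with 8 Gy serum, isoform sets, members called in the difference in response and members whose probes differ, and in each list the 2 with the smallest p; others are named to account for each member.

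Correlations of same-numbered arrays' deviations were 0.14 to 0.41 over the 5 pairs of the 20-day set and -0.06, 0.01, 0.14, 0.18 and 0.18 in the 10-day set. Not every pair was over 0.1, so the replicate number was used as a block only as an alternative. Other alternatives were the scaling, background correction, filter, probe rule, slide, groups in the fit, the authors' table and leaving out each array. Leaving out the slide of 20-day control arrays 1 to 3, and the twentieths of mean signal, were chosen after seeing the data. Precision is limited by the number of arrays.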

Additional observations from a re-analysis of the deposited data

Results flagged for a closer look

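Among 180 sets of arrays (45 members in 4 groups), 12 held an array whose gap to its nearest neighbour was over 0.71 of the range. For 5 arrays chance gives about 1 in 20. Sdha had only 4 values in the 20-day controls, and the other sets had 5. Control array 1 of the 20-day set was highest for Sdhd (gap over range 0.841) and Atp5g2 (0.713) and lowest for Uqcrq (0.786) and Cox6b1 (0.882). Control array 5 of the 10-day set was lowest for Uqcrc1 (0.75), Cox5b (0.751), Cox7a1 (0.792) and Atp5g1 (0.804). With 4 Gy serum, array 1 was highest for Sdhb (0.736) and Uqcrh (0.764). With 8 Gy serum, array 1 was lowest for Uqcrfs1 (0.92), and control array 4 of the 20-day set was highest for Cox7a2 (0.827).

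The response to irradiated serum differed between the sets, by limma's test of the difference (20-day minus 10-day response, log2), for 19 members. All 19 lay below 0, beside 22.0% of all genes below 0 and 12.2% above it. Members in complex II were Sdhc (-0.86) and Sdhd (-0.84), and in complex III Uqcrc1 (-0.54), Uqcr10 (-0.50) and Uqcr11 (-0.61). In complex IV they were Cox4i1 (-0.87), Cox5b (-0.79), Cox6a2 (-0.75), Cox6c (-0.34), Cox7a1 (-0.59) and Cox8a (-0.61). In complex V they were Atp5e (-0.61), Atp5g1 (-0.55), Atp5g2 (-0.66), Atp5g3 (-0.37), Atp5pb (-0.54), Atp5h (-0.45), Atp5j2 (-0.62) and Atp5l (-0.59).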

How the results depend on the processing

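With 8 Gy against control serum, the median member change was -0.44 scaled to the array median and -0.17 with the 75th percentile of detected probes, where 3 were higher. With quantile normalisation 9 were lower, 6 higher and the median -0.072, and with cyclic loess 9, 4 and -0.036; normexp gave 2 higher. Signs turned with quantile normalisation for Atp5k (0.22) and Atp5mpl (0.23), with cyclic loess for Cox6a1 (0.12), Cox6c (0.033), Atp5j (0.0105) and Atp5o (0.0028), and with normexp for Atp5d (0.29). For 4 Gy serum the median was -0.037 scaled to the array median and 0.15 with the slide as a block; normexp gave 1 lower and 1 higher, the mean of probes 1 lower, the groups compared alone 2 higher, the authors' deposited values 2 higher, and leaving out the slide of 20-day control arrays 1 to 3 gave 1 lower and 2 higher. The difference in response had medians of -0.39 (array median), -0.21 (detected probes), -0.13 with 12 calls (quantile), -0.047 (cyclic loess) and -0.22 (normexp), and Uqcrb turned to -0.35 without that slide. Between control groups the median was 1.03 (array median), 0.73 with 1 lower (detected probes), 0.52 (quantile), 0.40 with 1 lower (cyclic loess) and 0.95 (slide as a random block). Signs turned there with cyclic loess for Uqcrq (-0.13), Cox5a (-0.18; -0.057 with quantile), Cox6a1 (-0.17), Atp5a1 (-0.14), Atp5b (-0.47), Atp5c1 (-0.14) and Atp5md (-0.0061), and with normexp for Cox7c (-0.033). Between irradiated groups, detected probes gave 1 lower, and the median was 0.35 with quantile and 0.30 with cyclic loess. The cause of these moves was not tested.

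Leaving out 1 array at a time gave 24 to 27 lower, 0 to 1 higher and medians of -0.33 to -0.26 for 8 Gy serum, and 0 to 1 lower, 0 to 1 higher and medians of 0.00 to 0.06 for 4 Gy serum. It gave 19 to 25 differences in response (median -0.38 to -0.28). Between control groups 37 to 41 were higher and 0 lower (median 0.84 to 0.92; limma, 0 at an unadjusted p under 0.05 with all arrays), and between irradiated groups 38 to 43 were higher and 0 to 1 lower (median 0.51 to 0.56). The replicate block left 26 lower with 8 Gy serum and 19 differences, gave 39 higher between control groups, where Uqcrq did not pass (adjusted p = 0.0528, limma), and 40 higher and 1 lower between irradiated groups; beside Uqcrq, Sdhb, Atp5pb, Uqcrc2 and Cox6b2 it changed no other member's call.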
